A study of Mus musculus with 4 samples.

Results

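The miRNA families miR-297, miR-466, miR-467 and miR-669 were followed in mouse epidermal cells, with and without an active form of the transcriptional coactivator YAP, on a panel that counts single miRNA barcodes (nanoString nCounter). The members were taken by name, as every mouse miRNA probe whose name holds 1 of these 4 family numbers, which gave 33 of the 566 mouse miRNA probes and of the 618 probes in all. The oncogenic and the normal group each had 2 samples, and adult animals of both groups carried R26stoprtTA/+ and Col-tetO-YAPS127A/+ and drank doxycycline at 1 mg/ml for 8 days. Oncogenic animals carried K14-Cre as well, a Cre driven by a promoter of basal keratinocytes, while the normal animals had no Cre. The labels give 6 control animals without saying which of them went into which sample, so the spread between samples may be technical. Back skin was treated with trypsin and its epidermal cells, described as enriched for progenitors, were scraped off. The sample titles speak of tumours, whereas the condition label, used here, speaks of oncogenic epidermal cells.

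These families are rodent-specific and are derived from simple repeats. Most of their genes lie as a long tandem array in an intron of Sfmbt2, a Polycomb-group gene that in mouse is imprinted and expressed from the paternal allele in the early embryo and the placenta, and the array is known for its part in placental development. Like other miRNAs they are cut from hairpins and pair with target mRNAs through the seed, bases 2 to 8 of the mature strand. No role in the epidermis is taken as known here.

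RefSeq's gene annotation (assembly GRCm38.p6) listed 82 genes of the 4 families, 72 of them within Sfmbt2 and 10 elsewhere in the genome. By name, 25 of the 33 probes belonged only to genes within Sfmbt2, 5 only to genes elsewhere (miR-466i, miR-466j, miR-466k, miR-467f and miR-467g), and 3 to genes of both kinds. A shared family number was therefore not a shared locus. Because 4 probes carry several miRNA names each, the 33 probes stand for 39 names, and a joint probe cannot tell its miRNAs apart.

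Mature sequences from RefSeq (GRCm38.p6) were matched by exact name for only 5 of these miRNAs, which are shown here. All 5 come from genes outside Sfmbt2, so no sequence from the array within it was seen, nor that of miR-466h or miR-466g. Capitals mark the seed.
miR-466j: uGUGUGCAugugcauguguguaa
miR-466k: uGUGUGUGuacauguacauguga
miR-467f: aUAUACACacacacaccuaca
miR-467g: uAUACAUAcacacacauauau
miR-467h: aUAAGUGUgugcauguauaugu
miR-466j lies at chr10:60960802-60960824 on the plus strand, miR-466k at chr3:85467396-85467418 on the plus strand, miR-467f at chr11:69635419-69635439 on the minus strand, miR-467g at chr5:34732872-34732892 on the minus strand and miR-467h at chr9:115381898-115381919 on the plus strand. The 5 seeds all differ, also between miR-466j and miR-466k and among the miR-467 sequences.

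These 5 sequences fell into 2 kinds that the family numbers did not separate. U and G made up 73.9% of miR-466j, 69.6% of miR-466k and 68.2% of miR-467h, whereas A and C made up 85.7% of miR-467f and 71.4% of miR-467g. The longest run of strictly alternating U and G, or A and C, was 12 bases in miR-467f, a length reached by 3 of the 1679 mature mouse sequences in the table (0.179%), and 9 bases in miR-466k and miR-467g, reached by 9 of them (0.536%). miR-466j and miR-467h, named in different families, shared a stretch of 11 identical bases, and so did miR-467f and miR-467g. miR-466k could pair with miR-467f, and with miR-467g, over 10 consecutive Watson-Crick bases. Where identical stretches are shared, probes for these miRNAs may share signal, which was not tested and which the deposited values cannot separate. For the members without a matched sequence this could not be examined.

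The hairpin of miR-466k carries the repeat beyond the mature strand, which stands in capitals at bases 20 to 42 of 122.
Mir466k hairpin: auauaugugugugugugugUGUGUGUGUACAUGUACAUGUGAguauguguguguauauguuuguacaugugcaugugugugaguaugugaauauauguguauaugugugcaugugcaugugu
It lies at chr3:85467377-85467498 on the plus strand and holds an alternating run of 23 bases. In the epidermal samples the probe for this miRNA read 7.91 and 10.3 normalized counts in normal samples versus 4.37 and 12.3 in oncogenic samples, and these ranges overlap. The other miRNAs shown were as low over the 4 samples, with miR-466j between 2.62 and 7.05, miR-467f between 7.86 and 10.3, miR-467g between 6.11 and 14.1 and the joint probe of miR-467h, miR-669d and miR-669l between 6.11 and 8.61.

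The samples held between 53709 and 230284 miRNA counts, recovered as whole numbers from the deposited values, and oncogenic replicate 2 was the shallowest. There 1 barcode was worth 1.76 normalized counts, against 0.861 to 0.878 in the other samples. Of the 4 keratinocyte markers, miR-205 ran between 23078 and 40291 normalized counts, miR-203 between 8229 and 10451 and miR-200c between 710 and 801, whereas miR-184 stayed between 4.39 and 12.3. On the deposited scale, the summed marker miRNAs of 6 other cell types were lower in both oncogenic samples, to unequal degrees. The 3 red blood cell markers summed to 942 and 814 in normal cells and 46.3 and 47.6 in oncogenic cells, and the 2 endothelial markers to 223 and 400 against 11.4 and 17.6. The melanocyte pair summed to 345 and 171 against 28.0 and 17.6. The 6 markers of fibroblasts and smooth muscle summed to 221 and 218 against 161 and 82.8. The 6 white blood cell markers summed to 621 and 492 against 334 and 440, and the 4 muscle markers to 44.8 and 51.7 against 34.9 and 44.0. For these last 2 types the gap between the groups was small enough for another scaling to close it. Each muscle marker also lay below the highest viral probe of its sample, the background limit described below, so its sum does not show muscle RNA. Single markers could run the other way, as miR-142-5p of white blood cells did at 10.5 and 15.5 against 18.3 and 28.2. So did miR-1 of muscle, at 10.5 and 7.75 against 13.1 and 12.3. Their part in the values of the 33 members was not tested, and in such bulk samples fewer cells of a type and less RNA per cell cannot be told apart.

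Negative control and viral probes set the background. The 6 negative control probes, which have no target, averaged 4 and 5.5 counts in normal cells and 4.17 and 2.67 in oncogenic cells. The 33 probes for miRNAs of mouse herpesviruses, which carry the same scaling as the mouse miRNAs, reached at most 17.6 and 27.6 normalized counts in normal samples versus 18.3 and 22.9 in oncogenic samples. The highest was mghv-miR-M1-7-5p, except in oncogenic replicate 2, where it was mcmv-miR-M44-1. The limit was thus set mostly by 1 probe, which averaged 20.7 against a median of 6.75 over the means of the viral probes.

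Most members of the 4 families lay within the range of the viral probes. Of the 33 members, 28 lay at or below the highest viral probe in every sample, 5 exceeded it in at least 1 sample, and 0 exceeded it in all 4. The members above it numbered 2 and 1 in normal cells and 4 and 0 in oncogenic cells. Among the 533 other miRNA probes, 28.5% and 23.1% exceeded it in normal cells and 27.2% and 23.6% in oncogenic cells, against 6.06%, 3.03%, 12.1% and 0% of the members.

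**Figure D1:**
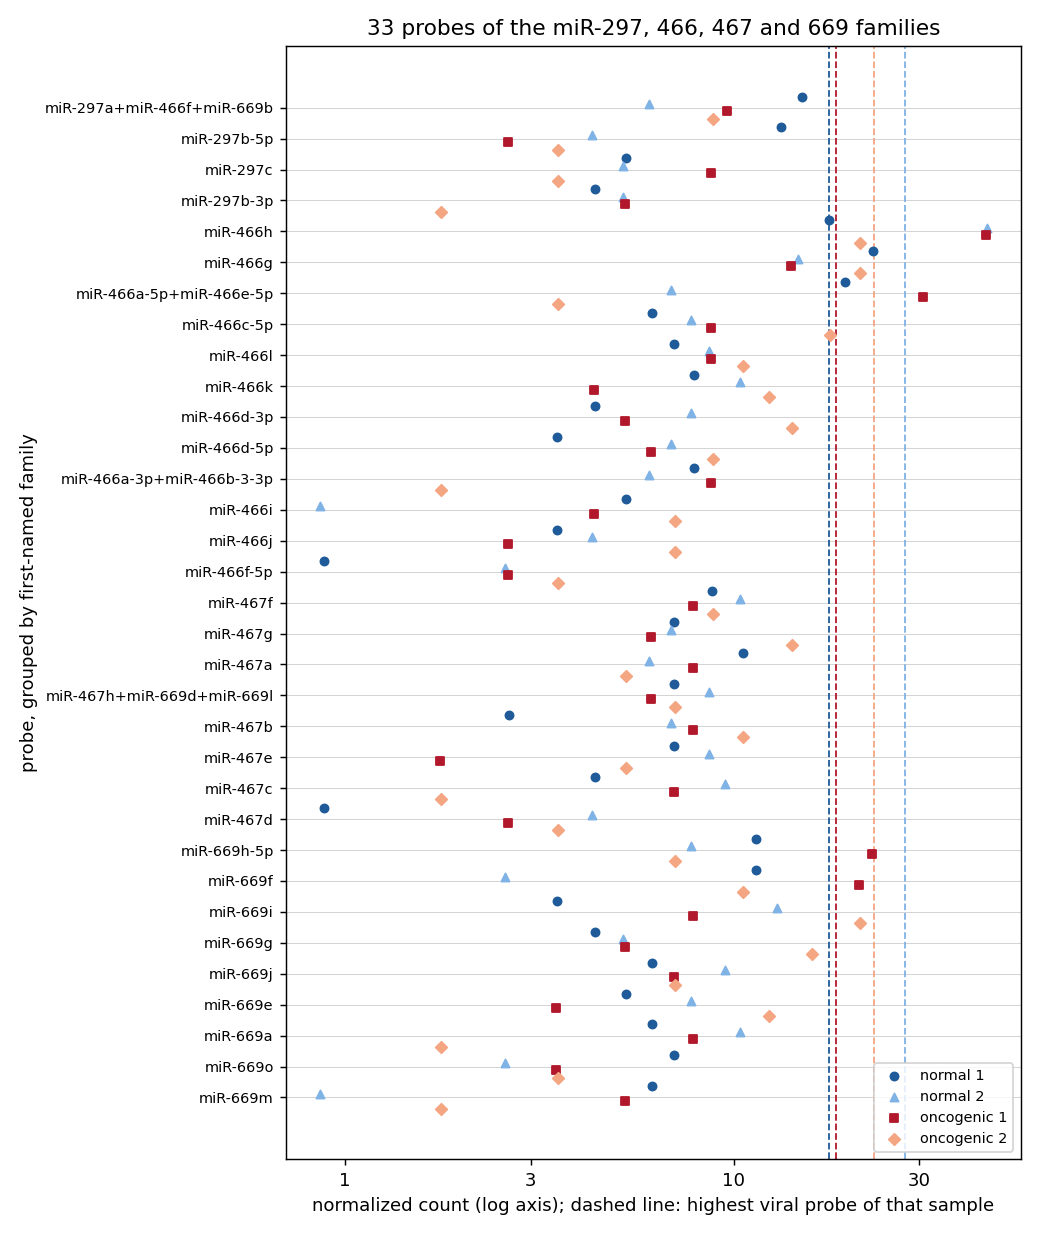
Normalized count (log axis) of each of the 33 probes in the 4 samples, grouped by the first family named. Points are single samples, shifted vertically so that they do not hide each other, and each dashed line is the highest viral probe of the sample in the same colour. Points to the right of their own line are few, and miR-466h in normal replicate 2 and oncogenic replicate 1, at 44.8 and 44.6, lies farthest right.

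The medians of the members and of the viral probes were close. In normal replicate 1 the median was 6.15 normalized counts for the members and 5.27 for the viral probes, and in normal replicate 2 it was 6.89 and 6.03. In oncogenic replicate 1 it was 6.99 and 6.11, and in oncogenic replicate 2 both stood at 7.05. Except in that last sample, the gap equalled the worth of 1 barcode. The mean over all members was 7.69, 7.96, 9.03 and 8.59 in normal 1, normal 2, oncogenic 1 and oncogenic 2, respectively. The mean over all viral probes was 6.12, 7.59, 7.01 and 8.17, lower in all 4 samples. With miR-466h set aside but no viral probe, the mean over the other members was 7.38, 6.81, 7.92 and 8.20. These stood higher than the viral probes in 3 of the 4 samples and lower in normal replicate 2.

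**Figure D2:**
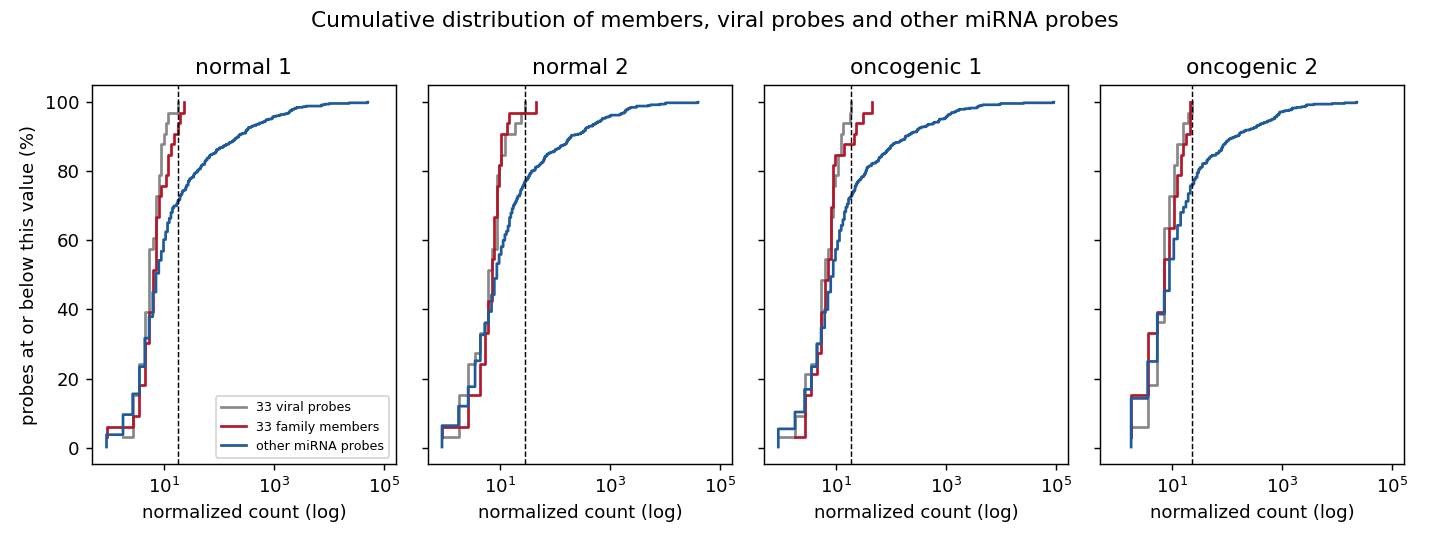
Cumulative share of probes (vertical axis, %) at or below a normalized count (horizontal log axis) in each sample, for the 33 members, the 33 viral probes and the 533 other miRNA probes. The dashed line is the highest viral probe. The curve of the members follows that of the viral probes and ends by 44.8, while the other miRNA probes extend to 92371.

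Against the negative controls, more members stood out, but so did viral probes. Above the mean plus 2 SD of the negative controls, on unscaled counts, were 11, 6, 6 and 9 members in normal 1, normal 2, oncogenic 1 and oncogenic 2, respectively, and also 9, 6, 8 and 6 of the 33 viral probes. Among the members only miR-466g and miR-466h passed in every sample. The viral probes mghv-miR-M1-7-3p and mghv-miR-M1-7-5p passed in every sample too. Of the other miRNA probes, 49.5%, 44.1%, 45.8% and 39.6% passed the same limit.

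miR-466h was the highest member and the only one that reached 30 normalized counts in at least 2 samples, the minimum for the test between groups. Its 5p arm has been reported to promote apoptosis in Chinese hamster ovary cells. It read 17.6 and 44.8 normalized counts in normal samples versus 44.6 and 21.1 in oncogenic samples. Each group thus held 1 high and 1 low sample, and the groups overlapped almost fully. In barcodes these were 20 (exact 95% Poisson interval 12.2 to 30.9) and 52 (38.8 to 68.2) in the normal samples, and 51 (38.0 to 67.1) and 12 (6.20 to 21.0) in the oncogenic samples. The highest viral probe stood at 20, 32, 21 and 13 barcodes in the same order. The interval of miR-466h lay above it in normal replicate 2 and oncogenic replicate 1, and in the other samples the viral probe stood within the interval. Such intervals cover counting error only.

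The group means of miR-466h were 31.2 ± 19.2 (SD, n = 2) in normal and 32.8 ± 16.6 (SD, n = 2) in oncogenic cells. The log2 difference, taken as oncogenic less normal after a log2(value + 1) transform, was 0.12 (SE 0.66, 95% interval -1.65 to 1.90), with an adjusted p = 0.925 from limma with Benjamini-Hochberg adjustment over all 124 tested miRNA probes. Of the tested probes 4.03% passed the adjusted threshold of 0.05, and miR-466h was not among them. At an unadjusted p under 0.05, which 24.2% of the tested probes reached, it did not pass either, nor in edgeR or DESeq2 on the recovered counts. The interval leaves room for more than a doubling or a halving, so similar levels are not shown. The sign of the difference rested on single samples: it was -0.53 without normal replicate 1 and 0.77 without normal replicate 2, and -0.40 without oncogenic replicate 1 and 0.64 without oncogenic replicate 2.

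miR-466g, whose gene stands directly beside that of miR-466h in Sfmbt2, was the next highest member. It read 22.8 and 14.6 normalized counts in normal cells and 14.0 and 21.1 in oncogenic cells. The samples of the groups overlapped. Only in normal replicate 1 did it exceed the highest viral probe, with 26 barcodes (interval 17.0 to 38.1) against 20. The other samples held 17 (9.90 to 27.2), 16 (9.15 to 26.0) and 12 barcodes (6.20 to 21.0), and all 4 intervals overlapped. The gene on the other side of miR-466g is that of miR-669o, whose probe averaged 4.16 normalized counts over all samples. Beyond miR-466h lies a copy of miR-297a, whose joint probe averaged 9.85.

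The joint probe for miR-466a-5p and miR-466e-5p read 19.3 and 6.89 normalized counts in normal samples versus 30.6 and 3.52 in oncogenic samples. It exceeded the viral probes in replicate 1 of each group and lay among them in replicate 2, and the oncogenic samples enclosed the normal ones. In oncogenic replicate 1 its 35 barcodes (interval 24.4 to 48.7) lay above the 21 of the highest viral probe, whereas the 22 barcodes in normal replicate 1 (interval 13.8 to 33.3) enclosed that sample's limit of 20.

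From the miR-669 family, miR-669h-5p read 11.4 and 7.75 normalized counts in normal cells and 22.7 and 7.05 in oncogenic cells. miR-669f read 11.4 and 2.58 in normal samples versus 21.0 and 10.6 in oncogenic samples. Both exceeded the highest viral probe in oncogenic replicate 1 alone, with intervals of 17.0 to 38.1 barcodes for miR-669h-5p and 15.4 to 35.7 for miR-669f that enclosed the viral probe's 21. In all, 7 of the 132 pairs of member and sample lay above the highest viral probe, and in 3 of these the lower bound of the interval did too. The genes of all 5 probes that exceeded the limit lie within Sfmbt2 by name, 25 probes having genes only there. None of the 5 probes with genes only elsewhere exceeded it, but 5 probes are too few for a share to be compared.

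**Figure D3:**
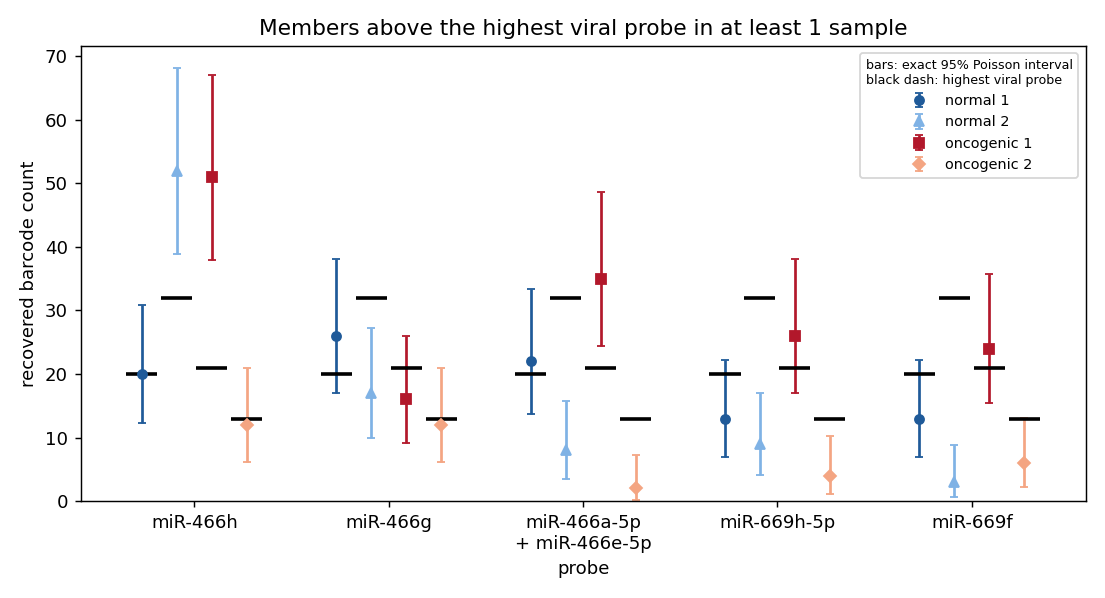
Recovered barcode counts of the 5 members above the highest viral probe in at least 1 sample. Points are single samples with exact 95% Poisson intervals, and black dashes give the highest viral probe of the same sample. Both miR-466h points near 51 and the joint miR-466a-5p and miR-466e-5p point at 35 have intervals clear of their dash.

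The other members are given by family. The miR-297 family, named first on 4 probes, ran from 1.76 to 14.9 normalized counts. Its highest probe, shared by miR-297a, miR-466f and miR-669b, read 14.9 and 6.03 in normal cells and 9.61 and 8.81 in oncogenic cells, and its lowest, miR-297b-3p, read 4.39 and 5.17 against 5.24 and 1.76. In both cases the samples of the groups overlapped. Neither probe passed the viral limit in any sample.

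The miR-466 family was named first on 12 probes, and its lowest, miR-466f-5p, read 0.88 and 2.58 normalized counts in normal samples versus 2.62 and 3.52 in oncogenic samples. These values amount to a few barcodes each. miR-466l, reported to raise interleukin-10 in mouse macrophages, read 7.03 and 8.61 against 8.74 and 10.6. All of these lie below the highest viral probe of their sample.

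The miR-467 family was named first on 8 probes, all between 0.88 and 14.1 normalized counts, and none exceeded the viral limit. The highest by mean was miR-467f, at 8.78 and 10.3 in normal cells and 7.86 and 8.81 in oncogenic cells. The lowest was miR-467d, at 0.88 and 4.31 against 2.62 and 3.52. miR-467a, which in mouse has been reported to repress the angiogenesis inhibitor thrombospondin-1 and has 10 genes in Sfmbt2, read 10.5 and 6.03 against 7.86 and 5.28. Its samples overlapped between the groups.

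The miR-669 family was named first on 9 probes, and its lowest, miR-669m, read 6.15 and 0.86 normalized counts in normal samples versus 5.24 and 1.76 in oncogenic samples. miR-669a, reported to repress MyoD in mouse cardiac progenitors and the member with the most genes, 12, read 6.15 and 10.3 against 7.86 and 1.76. The groups overlapped for both. The viral limit was not reached by either.

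Between the groups, both oncogenic samples lay above both normal samples for 5 members and below them for 2, while the samples of 26 members overlapped. Of all 566 miRNA probes 15.4% lay above and 17.7% below, which compares with 15.2% and 6.06% of the members. The 5 higher ones were miR-466c-5p, miR-466f-5p, miR-466l, miR-467b and miR-669g, and the 2 lower ones miR-297b-5p and miR-467e, named here after their values were seen. All 7 were at or below the highest viral probe in every sample. miR-466c-5p, the highest of them, read 6.15 and 7.75 normalized counts in normal cells and 8.74 and 17.6 in oncogenic cells. miR-467b, reported to target lipoprotein lipase in mouse macrophages, read 2.64 and 6.89 against 7.86 and 10.6, and miR-297b-5p read 13.2 and 4.31 against 2.62 and 3.52.

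When all 566 miRNA probes were tested without the minimum of 30, none of the 33 members passed limma's test, either with Benjamini-Hochberg adjustment or at an unadjusted p under 0.05. Of all probes 1.24% passed with and 8.83% without adjustment. The member differences had 15 negative and 18 positive signs and ran from -1.10 for miR-297b-5p to 1.26 for miR-669f, which had the smallest p among the members (unadjusted 0.113, adjusted p = 0.777). Their median was 0.09, against 0.04 over all probes. The replicate SD per probe on the log2(value + 1) scale, taken as the median over the members, was 0.47 in the normal and 0.74 in the oncogenic pair. It was 0.44 and 0.40 for the viral probes, which are of like abundance, and 0.28 and 0.39 for the 124 tested probes.

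**Figure D4:**
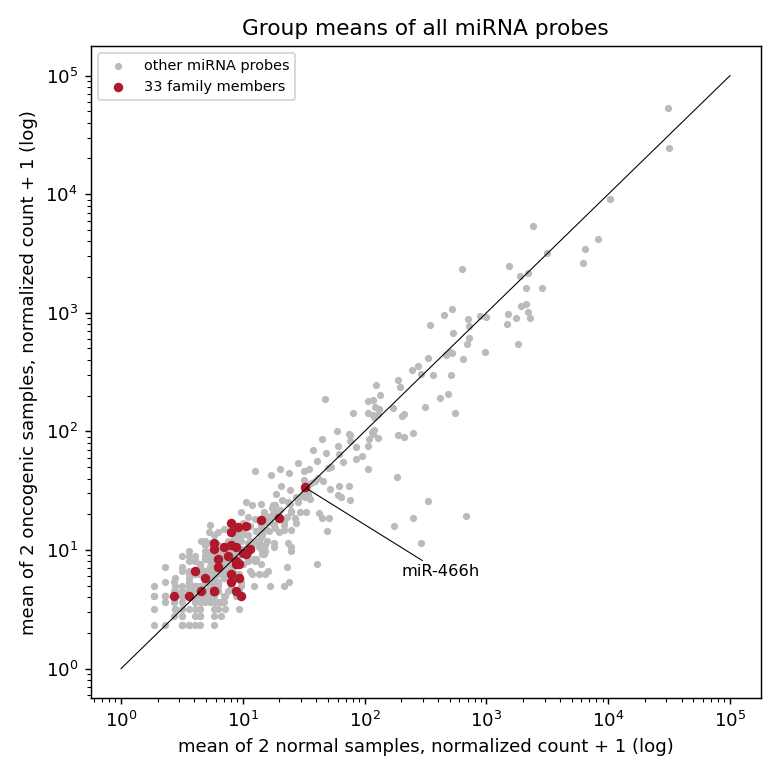
Mean normalized count plus 1 of the 2 oncogenic samples against that of the 2 normal samples for all 566 miRNA probes, on log axes with the line of equal values. The 33 members sit in the low corner of the cloud, and miR-466h, at means of 31.2 and 32.8, lies on the line.

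Summed over all 33 members, the level was 254 and 263 normalized counts in normal samples versus 298 and 284 in oncogenic samples. The oncogenic sums were higher, with a ratio of group means of 1.13, but the summed viral probes had a ratio of 1.11. Rescaling between samples multiplies all probes of a sample by 1 factor, so members and viral probes had to move together. The ratio depended on that scaling. Scaled to the 100 most abundant miRNA probes, it was 1.50 for the members and 1.49 for the viral probes, and scaled to the housekeeping mRNA probes it was 0.850 and 0.828. Scaled to the positive control probes it was 0.951 and 0.935. A score over chosen members is described here without a test.

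In unscaled barcodes the members summed to 289, 305, 341 and 161 in normal 1, normal 2, oncogenic 1 and oncogenic 2, respectively. This was 0.153% of all miRNA counts (exact Poisson interval 0.136 to 0.172) in normal replicate 1 and 0.195% (0.174 to 0.219) in normal replicate 2. It was 0.148% (0.133 to 0.165) in oncogenic replicate 1 and 0.300% (0.255 to 0.350) in oncogenic replicate 2. The shallow oncogenic replicate 2 had the highest share, beyond counting error. The viral probes showed the same order, their summed barcodes amounting to 0.122%, 0.186%, 0.115% and 0.285% of the miRNA counts. Both orders rest on that total, which includes the unevenly read probe miR-720. It read 51572 and 10046 normalized counts in normal samples versus 92371 and 13707 in oncogenic samples. Shares of a total without miR-720 are not given, and the order of the samples could differ there.

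**Figure D5:**
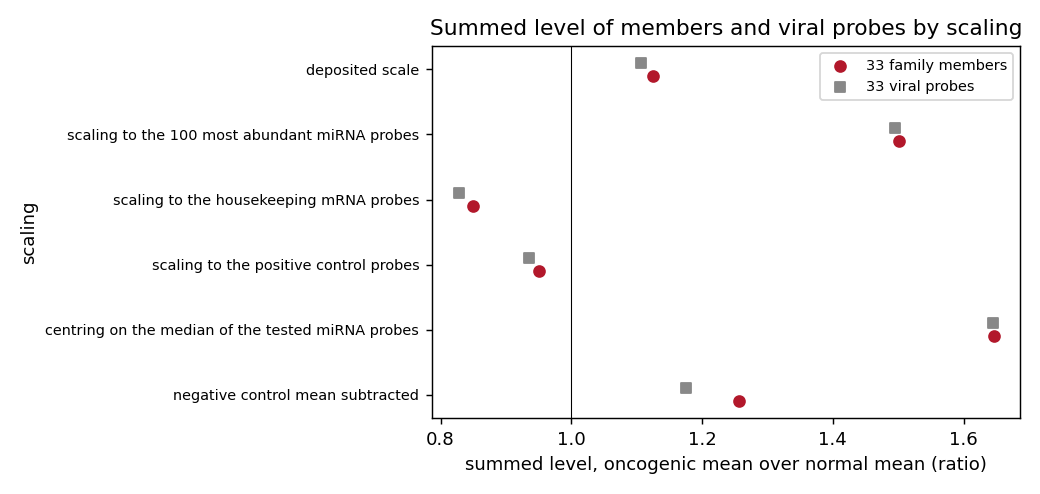
Ratio of the oncogenic to the normal mean of the summed level (horizontal axis) under the deposited scale, 4 other scalings and subtraction of the negative control mean, for the 33 members (circles) and the 33 viral probes (squares). Each scaling multiplies all probes of a sample by 1 factor, so the points had to move together. They run from 0.850 and 0.828 with housekeeping mRNAs to 1.65 and 1.64 with median centring.

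Other miRNA clusters of restricted expression were mostly as low in these cells. In the imprinted Dlk1-Dio3 cluster, 5 of 66 probes matched by name (7.58%) reached 30 normalized counts in at least 2 samples, and 3 exceeded the highest viral probe in all 4. In the rodent X-linked cluster, known from the testis, 1 of 21 probes (4.76%) reached 30 in 2 samples and exceeded the viral probes in all 4. That probe, miR-741, read 87.0 and 29.3 normalized counts in normal samples versus 176 and 24.7 in oncogenic samples, so that in replicate 2 of each group it stood close to the highest viral probe, at 27.6 and 22.9. The 4 repeat-derived families had 1 of 33 (3.03%) at 30 and 0 above the viral probes in all 4 samples, while 23.1% of the miRNA probes outside the 4 families reached 30. The highest member mean was 32.0 normalized counts, against 142 in the Dlk1-Dio3 cluster. The median of the probe means was 7.21 in the 4 families, 6.43 in the Dlk1-Dio3 cluster, 6.75 in the X-linked cluster and 6.75 for the viral probes. These differences between lists were not tested.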

How the data were processed

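Total RNA of 4 samples was hybridised in the nanoString nCounter miRNA assay, per the labels' protocols. The authors deposited a normalized signal per probe, by a method, background treatment and software not given in the sources used here. Its structure was checked on the values: in each sample, the deposited signal of 603 probes (miRNA, mRNA, viral) is a whole count times 1 factor, with 100% of values whole within 0.1 count, while control probes are unscaled. Groups were compared with limma (3.58.1, in R 4.3.3), using lmFit and a trended eBayes, two-sided, on log2(value + 1), for the 124 miRNA probes at 30 or more in at least 2 samples, adjusting p by Benjamini-Hochberg with a threshold of 0.05. It called 5 probes. Whole counts recovered from the signal also entered edgeR (4.0.16, TMM) and DESeq2 (1.42.0) as alternatives, which called 1 and 11. A difference on the log2 scale is understated for low probes. The fitting code was run on simulated counts with independent samples and large changes. That checks the code, and not the power or error rate of the test on these data. Members were described in full at 30 or more in 2 samples, by sample where above the viral probes or at the ends of a family, and otherwise by range, with a few more named after their values were seen. The members, lists, tests and alternatives were chosen with earlier results of these data known. RefSeq tables (GRCm38.p6) gave sequences, names and neighbours. miR-466a is not listed there by that name, so its joint probes were placed by their partner miRNAs. For miR-466i no sequence was printed because the probe name gives no arm. The YAP transgene is not analysed here.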

Additional observations from a re-analysis of the deposited data

How the results depend on the processing

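No member passed the adjusted threshold under any of the 19 alternatives in which at least 1 was tested, and with a minimum of 100 none could be tested. The adjusted p of miR-466h ranged from 0.443 to 0.983. Its difference was positive in 15 alternatives and negative in 4: -0.27 with housekeeping mRNA scaling, -0.11 with positive control scaling, and, with single samples left out, from -0.53 to 0.77. The number of changed miRNAs over all tested, 5, became 8 with centring or the 100 most abundant miRNAs, 3 with quantile normalization or positive control scaling, 1 in edgeR and 11 in DESeq2, and ran from 1 to 26 with single samples left out, the tested probes being kept. The lowest came without normal replicate 2 and the highest without oncogenic replicate 1. With the replicate number as a block it was 30. The replicate differences of the 2 groups correlated at 0.66 over the 124 tested probes, 0.31 over all 566 miRNA probes and 0.31 over the 33 members, a hint from the data only, since the labels do not say that a number marks a shared batch. miR-466h kept an adjusted p of 0.925 with the block. The summed member level, a ratio of 1.13, was 1.50 with the 100 most abundant miRNAs and 1.65 with centring. It was 0.850 with housekeeping mRNAs, 0.951 with positive controls and 1.26 after subtraction of the negative control mean (1.18 for viral probes). With single samples left out it ran from 1.10 to 1.15, and the ratio of the viral probes from 0.999 to 1.24. The number of members above background, 2, 1, 4 and 0 in normal 1, normal 2, oncogenic 1 and oncogenic 2, was 11, 6, 6 and 9 by the negative control mean plus 2 SD, 11, 11, 6 and 9 by the highest negative control, 5, 1, 4 and 3 by the viral mean plus 2 SD, and 0, 1, 2 and 0 at a value of 30. The causes of these shifts were not tested. Outside miR-466h in 2 samples and 1 joint probe in 1, the lower bound of a member's count did not exceed the highest viral probe. By that limit the other values were not shown to lie above background. By the highest negative control, which some viral probes also exceeded, miR-466g and miR-466h stood above background in all 4 samples. Whether more depth would separate members from viral probes was not tested.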
